A study of Schizosaccharomyces pombe with 2 samples.

Results

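Proteasome subunit genes of the fission yeast Schizosaccharomyces pombe were followed in 2 libraries of polyadenylated 3′ ends. The set holds every protein-coding gene of the RefSeq annotation whose symbol is rpn, rpt, pre, pup or mts followed by digits, which gave 31 of 5113 coding genes. One library came from a strain labelled nmt1-SEB1, in which the thiamine-repressible nmt1 promoter drives seb1, and 1 from a wild-type strain; both grew in minimal medium with thiamine. The labels describe no other alleles and use both knock-out and knockdown for the promoter strain, so it is named here by its construct. Seb1 binds RNA and resembles Nrd1 of budding yeast; the study concerns its part in 3′ end formation and in which poly(A) site is used. Each strain gave 1 library and there was no replicate check. Every test and interval below therefore concerns the reads of these 2 libraries and not the conditions.

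The proteasome degrades proteins that carry ubiquitin chains. Its core particle (20S) is a barrel of outer alpha rings, which gate the entry, and inner beta rings, some of whose subunits cut peptide bonds. The regulatory particle (19S) caps the barrel. Its base holds a ring of ATPases that unfold substrates together with scaffold and ubiquitin-receptor subunits, and its lid holds the deubiquitinase that removes the chains. The product names of the annotation give the subunit but mostly not base or lid, to which the genes were assigned by subunit. The set comprised 6 alpha ring genes (pre8, pre9, pre6, pup2, pre5 and pre10) and 5 beta ring genes (pre3, pup1, pup3, pre1 and pre4). In the base were the 6 ATPases rpt1 to rpt6 and 5 other genes (mts4, rpn2, rpn10, rpn1301 and rpn1302). The lid had 9 genes (rpn3, rpn501, rpn502, rpn6, rpn7, rpn8, rpn9, rpn11 and rpn12). Subunits with other symbols, such as scl1 (alpha 1), pts1 (beta 5) and pam1 (beta 6), were outside the rule and are given as a separate list.

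The nmt1-SEB1 library held 3376142 reads and the wild-type library 2702105. Of these, 3373116 and 2697953 lay on the nuclear chromosomes, and 98.4% and 99.7% of the nuclear reads were assigned to genes. Abundance is given as RPM, the reads of a gene scaled to a total of 1000000 gene-assigned reads. On this scale a single read counted 0.301 in nmt1-SEB1, against 0.372 in wild type. The targeted gene seb1 had 826 reads in nmt1-SEB1, against 1848 in wild type, a ratio of 0.362 (95% interval 0.333 to 0.393). nmt1 itself had 21 reads in nmt1-SEB1, against 9 in wild type. In bulk RNA, fewer cells carrying a transcript and less of it per cell cannot be told apart.

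The sequences shown first are those around the cleavage sites on which the results turn. Each is the 30-nt stretch of the transcribed strand, 5′ to 3′, that holds the first TGTA within 100 nt after the site or, where there was none, the last poly(A) signal within 50 nt before it. Capitals mark the motif, which is TGTA in most lines, AATAAA in rpt3 and the variant AATGAA in pre4. The first lines are proximal sites of some of the genes whose reads moved to a site further downstream. The shifted genes pre1, rpn2 and pre8, which lack TGTA after their proximal site, are not among them. After these lines come the sites of rpn3 and pre3, which had no pair of sites to compare. Last is the proximal site of rpt3, the 1 gene that moved the other way.
pup3 (chrIII:859464-859493, minus strand, from 5 nt before the site): cctaaatggttatTGTAcaagtaaaactct
pup1 (chrI:4352157-4352186, plus strand, from 43 nt after the site): aaaaagcctaccaTGTAatgacaaatatga
pre6 (chrII:410572-410601, plus strand, from 3 nt before the site): aaaactcttttatTGTAatgatatttttta
pup2 (chrI:3909250-3909279, minus strand, from 22 nt after the site): ctatgattagaaaTGTAttcctttcatctt
rpt2 (chrII:1197737-1197766, minus strand, from 1 nt before the site): tattatttaatccTGTAgagaagtatTGTA
rpn8 (chrIII:392001-392030, plus strand, from 11 nt before the site): acgtttgttaaatTGTAtttacgaaggata
pre4 (chrII:770688-770717, plus strand, before the site): agatactttatgAATGAAttggttaacatg
rpn3 (chrII:714136-714165, plus strand, from 6 nt before the site): aaagttgttcagtTGTAtgtttctttaatg
pre3 (chrII:3118866-3118895, plus strand, from 12 nt before the site): gttatgagtcctaTGTAattgtcataagag
rpt3 (chrIII:2097666-2097695, minus strand, before the site): ttgctttctataAATAAAtgttcgtcgata
These letters are from the RefSeq genome given with the data, and the deposited positions may be off by 1 nt.

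The abundance of the proteasome genes differed between the libraries in both directions. Of the members tested, 16 had a log2 ratio above 0 and 13 one below 0, but among those past 2-fold more were lower than higher in nmt1-SEB1. A gene was called when it had 20 or more reads in sum, a ratio of 2 or more, or of 0.5 or less, and an exact 95% interval of that ratio without 1 in it. Of 29 members tested, 2 were higher in nmt1-SEB1, where the share over all 4702 coding genes tested was 26%, and 7 were lower, where it was 17%. The median log2 ratio was 0.22 for the members and 0.20 for all coding genes. Scaling bears on these counts, because scaling by TMM shifted all log2 ratios by -0.65, and scaling by median-of-ratios shifted them by -0.72. That gave 2 higher and 11 lower members under TMM and 2 and 12 under median-of-ratios. Over all coding genes 30.6% and 28.3% of the calls were higher under these scalings, against 60.5% without them. With lncRNA annotations ignored, so that more downstream reads count for the gene, 7 members were higher and 6 lower, beside 31.2% and 13.2% of coding genes. With reads counted only to 200 nt past the gene end in place of 1000 nt they were 4 and 7, beside 24.3% and 18.4%. Summed over the members, there were 13955 reads in nmt1-SEB1, against 15552 in wild type, 0.420% (95% interval 0.413 to 0.427) and 0.578% (0.569 to 0.587) of gene-assigned reads, and rpn3 alone held 1075 and 6580 of them. Without rpn3 the sums were 12880 reads in nmt1-SEB1, against 8972 in wild type, 0.388% (0.381 to 0.395) and 0.334% (0.327 to 0.341), so the lower total rested on that gene.

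**Figure D1:**
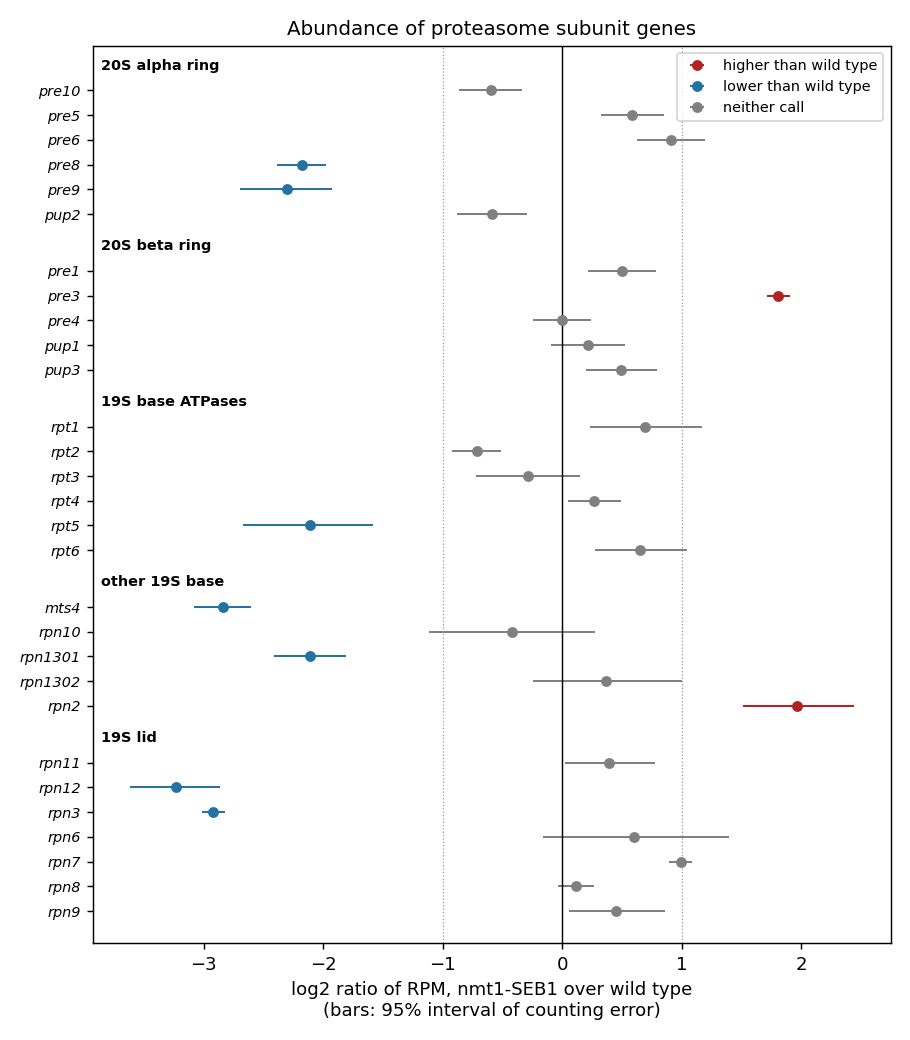
Log2 ratio of RPM, nmt1-SEB1 over wild type, for the 29 tested members by subcomplex, with exact 95% intervals that cover counting error. Dotted lines mark 2-fold; rpn2 and pre3 lie above it, 7 genes lie below it, and the lowest are rpn12, rpn3 and mts4.

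In the alpha ring, pre8 and pre9 were lower and the other 4 genes were not called. pre8 (SPCC1442.06, alpha 2, chromosome III, 1778094 to 1780442, plus strand) had 251 reads (75.6 RPM) in nmt1-SEB1 and 921 (342 RPM) in wild type, a ratio of 0.221 (0.191 to 0.254, log2 -2.18). pre9 (SPAC13C5.01c, alpha 3, chromosome I, 423926 to 425239, minus strand) had 73 reads in nmt1-SEB1, against 292 in wild type, a ratio of 0.203 (0.155 to 0.263, log2 -2.30). A lncRNA, SPNCRNA.2170, is annotated 15 nt past the end of pre9 on its strand and takes the reads beyond. With lncRNA annotations ignored the log2 ratio of pre9 was 0.13 (interval -0.10 to 0.35), so its call ended and its sign turned; that of pre8 was -1.80. pre5 (SPAC6G10.04c, alpha 6) had 346 reads in nmt1-SEB1 (104 RPM), against 187 in wild type (69.5 RPM, log2 0.58), and pre6 (SPBC106.16, alpha 4) had 347 in nmt1-SEB1, against 150 in wild type (log2 0.91, interval of the ratio 1.54 to 2.29). pre6 was called higher with lncRNAs ignored (1.01) and with reads to 200 nt (1.04). The log2 ratios of pup2 (alpha 5) and pre10 (alpha 7) were -0.59 and -0.60, and both passed 2-fold lower under TMM and median-of-ratios. The sign of pre5 turned under both scalings (-0.07 and -0.13).

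The catalytic beta 1 gene pre3 was higher, and no beta ring gene was lower. pre3 (SPBC4C3.10c, chromosome II, 3117646 to 3118883, plus strand), which encodes the caspase-like active site, had 4424 reads (1333 RPM) in nmt1-SEB1 and 1024 (381 RPM) in wild type. Its ratio of 3.50 (3.27 to 3.75, log2 1.81) stayed above 2 under every setting tried, with log2 1.15 under TMM and 1.09 under median-of-ratios. pre4 (SPBC577.10, beta 7, chromosome II, 769653 to 770937, plus strand) had 317 reads in nmt1-SEB1 (95.5 RPM), against 257 in wild type (95.6 RPM), a ratio of 0.999 (0.845 to 1.18). With reads counted only to 200 nt past the gene end its log2 ratio was -0.56. pup1, the trypsin-like beta 2, had 215 reads in nmt1-SEB1, against 150 in wild type (log2 0.22). For pup3 (beta 3) the numbers were 257 in nmt1-SEB1, against 148 in wild type (log2 0.49), and for pre1 (beta 4) 291 in nmt1-SEB1, against 167 in wild type (log2 0.50). These 3 signs turned under TMM and median-of-ratios.

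Among the base ATPases, rpt5 was lower and the other 5 genes were not called. rpt5 had 38 reads in nmt1-SEB1, against 133 in wild type, a ratio of 0.231 (0.157 to 0.334, log2 -2.11). rpt2 (SPBC4.07c, chromosome II, 1197778 to 1199428, minus strand) had 352 reads in nmt1-SEB1 (106 RPM), against 468 in wild type (174 RPM), a ratio of 0.609 (0.529 to 0.701, log2 -0.71). It passed 2-fold lower under both other scalings. rpt4 (SPCC1682.16, chromosome III, 405601 to 407595, plus strand) had 412 reads in nmt1-SEB1 (124 RPM), against 277 in wild type (103 RPM), a ratio of 1.20 (1.03 to 1.41). rpt1 had 118 reads in nmt1-SEB1, against 59 in wild type (log2 0.70, interval of the ratio 1.18 to 2.25). With lncRNAs ignored rpt1 and rpt6 were called higher (log2 1.79 and 1.33); the next lncRNAs on their strands begin 261 and 60 nt past their ends. The sign of rpt4 turned under both other scalings, and those of rpt1 and rpt6 turned under median-of-ratios (-0.02 and -0.06). rpt3, with a log2 ratio of -0.29, was called lower under median-of-ratios (-1.005).

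Among the other base genes, mts4 and rpn1301 were lower and rpn2 was higher. The ubiquitin-binding scaffold gene mts4 (SPBP19A11.03c, Rpn1, chromosome II, 2851121 to 2854102, minus strand) had 172 reads (51.8 RPM) in nmt1-SEB1 and 996 (370 RPM) in wild type, a ratio of 0.140 (0.118 to 0.165, log2 -2.84). The other large scaffold gene, rpn2 (SPBC17D11.07c, chromosome II, 3319633 to 3322912, minus strand), was higher, with 231 reads (69.6 RPM) in nmt1-SEB1 and 48 (17.8 RPM) in wild type, a ratio of 3.90 (2.85 to 5.44, log2 1.96). Rpn13, a ubiquitin receptor, has 2 genes. rpn1301 (SPBC342.04) fell to 121 reads (36.5 RPM) in nmt1-SEB1, against 422 (157 RPM) in wild type, a ratio of 0.232 (0.188 to 0.285). rpn1302 had 59 reads in nmt1-SEB1, against 37 in wild type, and no call. The receptor gene rpn10 had 36 reads in nmt1-SEB1, against 39 in wild type, and no call. It was called higher with lncRNAs ignored (log2 1.27) and lower under TMM (-1.07) and median-of-ratios (-1.14).

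rpn3 and rpn12, which encode lid subunits, were lower and no tested lid gene was higher. rpn3 (SPBC119.01, chromosome II, 712490 to 714152, plus strand) had the most reads of all members in wild type, with 1075 reads (324 RPM) in nmt1-SEB1 and 6580 (2447 RPM) in wild type. Its ratio was 0.132 (0.124 to 0.141, log2 -2.92), and its log2 ratio was -2.06 with lncRNAs ignored. rpn12 (SPBC16G5.01, chromosome II, 4214977 to 4216117, plus strand) had the lowest ratio of all members, with 67 reads in nmt1-SEB1, against 509 in wild type (0.107, interval 0.0814 to 0.138, log2 -3.23). The lncRNA SPNCRNA.6494 begins 13 nt past its end, and with lncRNAs ignored the log2 ratio of rpn12 was -2.34 and it was still called lower. rpn7 (SPBC582.07c, chromosome II, 430393 to 431765, minus strand) had 2897 reads in nmt1-SEB1 (873 RPM), against 1182 in wild type (440 RPM), a ratio of 1.99 (1.86 to 2.13, log2 0.99), just under 2-fold. It was called higher with reads to 200 nt (1.12), with lncRNAs ignored (1.08) and with reads past the stop codon alone (1.02). rpn8 had 859 reads in nmt1-SEB1, against 643 in wild type (log2 0.11), and the genes of the deubiquitinase Rpn11 and of Rpn9 and Rpn6 had log2 ratios from 0.39 to 0.60; all 4 signs turned under TMM and median-of-ratios.

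The remaining pair, rpn501 and rpn502, had 0 reads in both libraries, as did 88 of the 5113 coding genes (1.72%). Their coding sequences of 1332 nt differ at 2 positions, and 858 nt past the stop codon and 77 nt before the start codon are identical. Reads of such near-identical copies cannot be placed on 1 of them by sequence; the sources used here do not say how the authors treated reads with several alignments. The 0 values are therefore no measure of Rpn5 mRNA.

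In nmt1-SEB1 most members with a pair of sites to compare used the distal one more. For each gene, reads past the stop codon were gathered into clusters of positions within 24 nt of a peak. The 2 largest clusters were compared as proximal and distal where each held 5% of reads in 1 library and the pair held 20 reads in each library. Clusters were ranked by the mean of their shares in both libraries, so a cluster could enter through nmt1-SEB1 alone. That was so for the distal clusters of pre4, rpn8 and rpn6, which had 0 reads in wild type. The pairs were thus chosen on the same reads that the test compares, and its p-values do not allow for that choice. A distal share was called when it differed by at least 10 percentage points and Fisher's exact test, Benjamini-Hochberg adjusted over all coding genes tested, gave a p under 0.05. Of 26 members tested, 17 had a higher distal share in nmt1-SEB1, where the share over all 2949 coding genes was 67.3%; 1 had a lower one, where it was 3.97%; and 8 had neither call. The share of members called is near that of coding genes at large and is no result about proteasome genes as such. The subcomplexes below hold 4 to 6 tested genes each and were not tested against that share. With clusters chosen on wild type alone, 10 of 22 members were higher and 2 lower, beside 49.8% and 5.52% of coding genes. The median distal share of the members was 43.4% in nmt1-SEB1, against 15.2% in wild type, with a median difference of 24.5 points, and over all coding genes it was 65.2% and 16.8%, with 25.4 points.

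**Figure D2:**
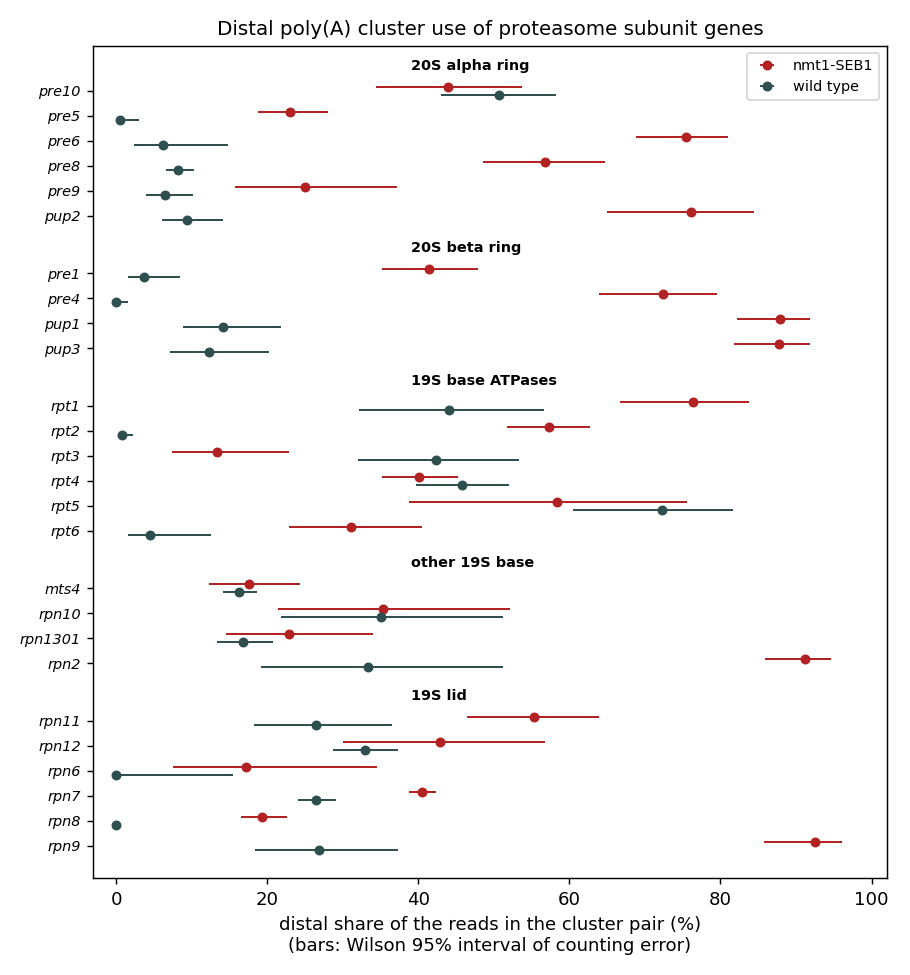
Share of reads in the distal cluster of each pair, in percent, for the 26 tested members by subcomplex in nmt1-SEB1 and wild type, with Wilson 95% intervals that cover counting error. The beta ring genes stand between 41.4% and 87.9% in nmt1-SEB1 and between 0% and 14.2% in wild type, and rpt3 is the 1 gene with the reverse order beyond the threshold.

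All 4 beta ring genes with a pair to compare shifted (67.3% of coding genes), and 3 of them were among the 5 largest shifts of the set. In pup3 the distal cluster, at 505 nt after the stop codon, held 143 of 163 reads of the pair in nmt1-SEB1 (87.7%, 95% Wilson limits 81.8 and 91.9) and 12 of 98 in wild type (12.2%, 7.15 to 20.2). The proximal cluster lay at 291 nt (Benjamini-Hochberg adjusted p of Fisher's exact test = 5.69e-35). A pup3 cluster nearer the stop codon, at 211 nt, was outside the pair. It held 56 reads in nmt1-SEB1 (21.8%), more than the 20 at 291 nt, and 38 in wild type (25.7%). In pup1 the cluster at 438 nt held 152 of 173 reads in nmt1-SEB1 (87.9%, 82.2 to 91.9) and 16 of 113 in wild type (14.2%, 8.91 to 21.8), beside a proximal cluster at 180 nt. The libraries thus put most reads of each of these pairs at opposite sites. pre4 had 89 of 123 reads at 590 nt in nmt1-SEB1 (72.4%, 63.9 to 79.5) and no read of 231 in wild type, where 0 reads allow a share of up to 1.30%. Beyond it pre4 had 3 more clusters, at 656, 725 and 762 nt, with 43, 84 and 35 reads in nmt1-SEB1, against 0 in wild type. pre1 had 41.4% at the distal site in nmt1-SEB1, against 3.73% in wild type, with sites at 717 and 152 nt. These results depend on which pair is compared. With clusters chosen on wild type alone, another pair was compared and the differences of pup3, pup1 and pre1 were -42.5, -8.62 and -7.17 points; with reads only to 500 nt past the gene end that of pre1 was -5.15 points. With first and last clusters compared that of pup3 was 17.4 points.

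The alpha ring had 5 higher distal shares among 6 genes tested (67.3% of coding genes). pre6 used the cluster at 397 nt for 144 of 191 reads in nmt1-SEB1 (75.4%, 68.8 to 81.0) and for 4 of 65 in wild type (6.15%, 2.42 to 14.8), against a proximal site at 122 nt. With clusters chosen on wild type its difference was 15.99 points, in place of 69.2, and still called. pup2 had 54 of 71 reads at 179 nt in nmt1-SEB1 (76.1%, 65.0 to 84.5) and 19 of 203 in wild type (9.36%, 6.07 to 14.2). The distal shares of pre8, pre9 and pre5 were 56.8%, 25% and 23.1% in nmt1-SEB1, against 8.24%, 6.43% and 0.543% in wild type. So pre8, and pre9 where lncRNAs limit its reads, combined fewer reads with a more distal end. pre9 had the smallest of these shifts, at 18.6 points, but 70.7 points with lncRNAs ignored. With first and last clusters compared the differences of pup2 and pre8 were 32.0 and 31.0 points, in place of 66.7 and 48.6. pre10 (43.9% in nmt1-SEB1, against 50.6% in wild type, Benjamini-Hochberg adjusted p of Fisher's exact test = 0.344) had no call, but it had clusters at 597 and 675 nt with 24 and 32 reads in nmt1-SEB1, against 0 in wild type. Its largest wild-type cluster, at 385 nt, was outside the compared pair, with 35 reads in nmt1-SEB1 (16.5%), against 83 in wild type (31.4%). With first and last clusters compared, the difference of pre10 was 36.8 points.

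In the base, rpt2, rpt1 and rpt6 had higher distal shares and rpt3 a lower one. rpt2 had 180 of 314 reads at 235 nt in nmt1-SEB1 (57.3%, 51.8 to 62.7) and 3 of 392 in wild type (0.765%, 0.261 to 2.23). With clusters chosen on wild type another pair was compared, its difference was 1.12 points and the call ended; with first and last clusters it was 86.5 points. In rpt1 and rpt6 the shares were 76.3% and 31.1% in nmt1-SEB1, and 44.1% and 4.55% in wild type. rpt3 used its distal cluster at 320 nt for 10 of 75 reads in nmt1-SEB1 (13.3%, 7.41 to 22.8) and for 33 of 78 in wild type (42.3%, 32.0 to 53.4). Its proximal site lies 13 nt past the stop codon (Benjamini-Hochberg adjusted p of Fisher's exact test = 0.000117). rpt3 also had a cluster further out, at 577 nt, with 8 reads in nmt1-SEB1, against 1 in wild type, and with first and last clusters compared its difference was 8.78 points and the lower call ended. rpt4 had neither call (40.1% in nmt1-SEB1, against 45.8% in wild type). The same held for rpt5, with 14 of 24 reads at its distal site 575 nt past the stop codon in nmt1-SEB1 (58.3%, 38.8 to 75.5) and 47 of 65 in wild type (72.3%, 60.4 to 81.7). Of the other base genes, rpn2 shifted, with 155 of 170 reads at 356 nt in nmt1-SEB1 (91.2%, 86.0 to 94.6) and 10 of 30 in wild type (33.3%, 19.2 to 51.2). mts4, rpn10 and rpn1301 had differences of 1.27, 0.16 and 6.10 points and no call. With first and last clusters compared rpn1301 was called higher (27.4 points), and with lncRNAs ignored rpn10 was (75.6 points).

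The lid had 4 higher distal shares among 6 genes tested, near the 67.3% of coding genes. rpn9 had 92.5% of its pair at the distal site in nmt1-SEB1, against 26.8% in wild type, with the sites at 115 and 66 nt. With clusters of 50 nt its difference was 24.3 points, in place of 65.6. rpn11 had 55.4% in nmt1-SEB1, against 26.4% in wild type. rpn8, the partner of Rpn11, had 123 of 635 reads at 724 nt in nmt1-SEB1 (19.4%, 16.5 to 22.6) and none of 616 in wild type, where 0 reads allow up to 0.487%. In rpn7 the shares were 40.5% of 2799 reads in nmt1-SEB1, against 26.5% of 1161 in wild type, the most reads behind any pair of the set. With clusters of 10 nt the difference of rpn7 was 9.93 points and its call ended. rpn12 had neither call (9.96 points), but it was called higher with first and last clusters compared (27.5 points). In rpn6 the distal site at 115 nt held 5 of 29 reads in nmt1-SEB1 (17.2%, 7.60 to 34.5) and none of 21 in wild type, where 0 reads allow up to 14.3%, and there was no call (Benjamini-Hochberg adjusted p of Fisher's exact test = 0.0816). rpn3 could not be tested because it had a single cluster, 47 nt past the stop codon, which held 817 of its reads past the stop codon in nmt1-SEB1 (88.4%) and 6558 in wild type (99.7%). pre3 likewise had 1 cluster, at 251 nt, with 99.3% of its reads in nmt1-SEB1, against 98.5% in wild type, and rpn1302 had 1, at 69 nt, with 100% in each library. The member with the most reads in each library, pre3 in nmt1-SEB1 and rpn3 in wild type, thus had 1 dominant cluster. Positions within these clusters differed between the libraries. In rpn3, 47 and 57 nt had 279 and 291 reads in nmt1-SEB1, against 3705 and 1338 in wild type. In pre3, 251 and 256 nt had 2353 and 1638 in nmt1-SEB1, against 666 and 133 in wild type.

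**Figure D3:**
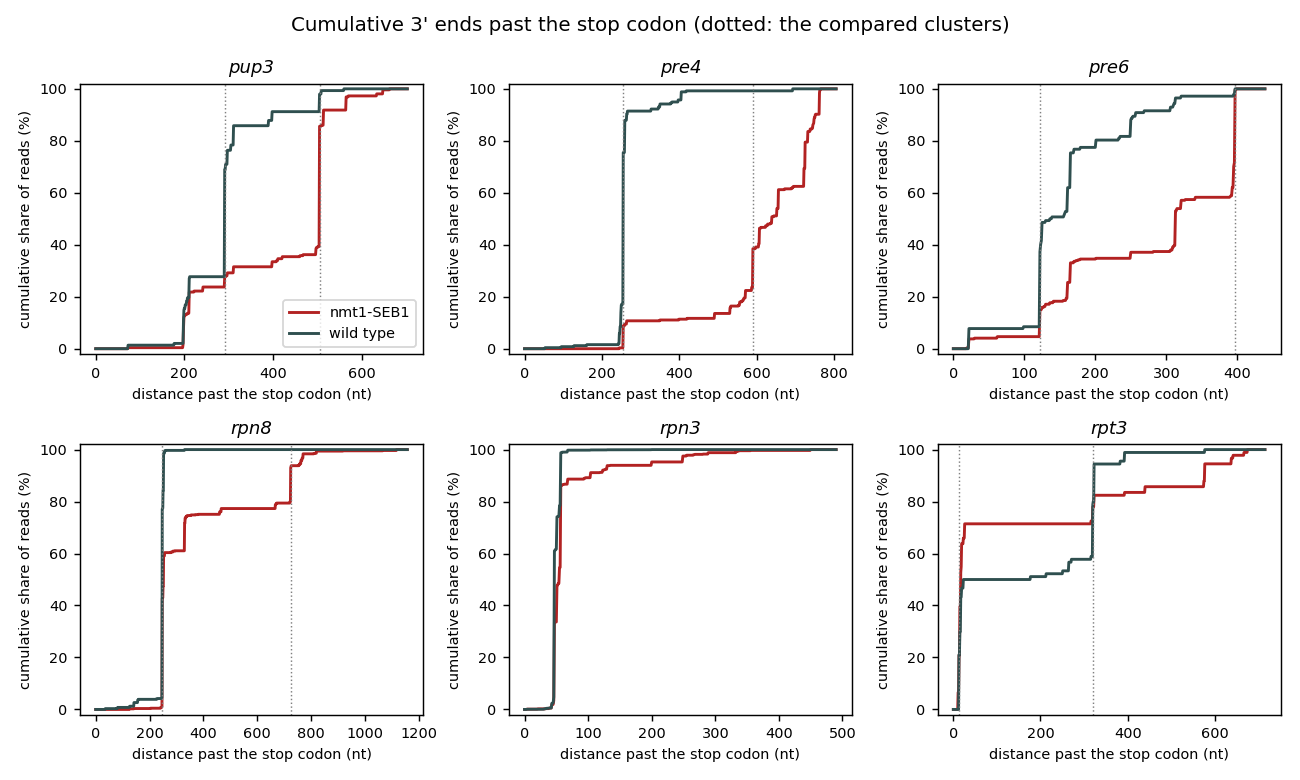
Cumulative share of reads past the stop codon, in percent, against distance from the stop codon in nt, for 6 members in nmt1-SEB1 and wild type; dotted lines mark the compared clusters. The nmt1-SEB1 curves of pup3, pre4, pre6 and rpn8 rise later, and rpt3 rises more at its first site in nmt1-SEB1. In both libraries rpn3 rises within its cluster around 47 nt, with a longer tail in nmt1-SEB1.

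Averaged over all reads past the stop codon, 21 of 29 members ended at least 20 nt further downstream in nmt1-SEB1, where the share over 3672 coding genes was 74.3%. One member, rpt3, ended closer (2.83% of coding genes), and 7 lay within 20 nt; these counts have no test behind them. The mean ends of pre4 were 614 nt in nmt1-SEB1 and 266 nt in wild type, the largest difference of the set (349 nt). The next largest were those of pre1, pre8, rpn1301 and pup1, with means of 451, 405, 290 and 378 nt in nmt1-SEB1, against 183, 173, 83.2 and 205 nt in wild type. With reads only to 500 or 200 nt past the gene end the difference of pre1 was -4.46 nt. rpn1301, which had no call in its pair, had a cluster at 635 nt with 21 reads in nmt1-SEB1, against 2 in wild type. rpt3 had a mean of 147 nt in nmt1-SEB1, against 168 nt in wild type. The median difference was 53.6 nt for the members and 65.9 nt for coding genes. By subcomplex the medians of the differences were 173 nt in the beta ring, 108 nt in the alpha ring, 53.3 nt in the lid, 40.5 nt in the ATPases and 12.8 nt in the other base genes; differences between subcomplexes were not tested.

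Read-through, counted as reads that end over 200 nt beyond a gene's largest cluster, exceeded 10% in 11 of 29 members in nmt1-SEB1 (39.4% of coding genes) and in 1 member, rpt3, in wild type (10.2%). The mean over members was 16.3% in nmt1-SEB1, against 2.95% in wild type, and over coding genes 17.2% and 3.53%. The highest shares in nmt1-SEB1 were those of pre4 (88.3%, against 0.778% in wild type), pup3 (63.8%, against 8.78% in wild type) and pre1 (45.0%, against 3.59% in wild type). In rpn8 the share was 24.9%, against 0 of 643 wild-type reads, which allows up to 0.467%. The distal clusters of pre4, pup3, pre1 and rpn8 lie over 200 nt beyond their largest clusters, which were ranked over both libraries. Their read-through therefore holds reads already counted in the distal shares. In pup3, 143 of the 164 such reads in nmt1-SEB1 lay in the cluster at 505 nt, its largest in that library. With lncRNAs ignored 19 members passed 10% in nmt1-SEB1, against 3 in wild type, beside 48.1% and 11.6% of coding genes. In 19 of 29 members no wild-type read lay that far downstream, and the same held for 2357 of 3672 coding genes. Apart from rpn2, with 2 such reads in nmt1-SEB1, against 1 in wild type, rpt3 was the 1 member with the lower share in nmt1-SEB1, with 28.6% in nmt1-SEB1, against 47.8% in wild type; its largest cluster is the proximal one, and its distal cluster lies beyond the 200 nt. pup1, rpn10, rpn12 and rpt6 could show no read-through, because the next annotated gene on the strand ends their window less than 200 nt past their largest cluster.

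**Figure D4:**
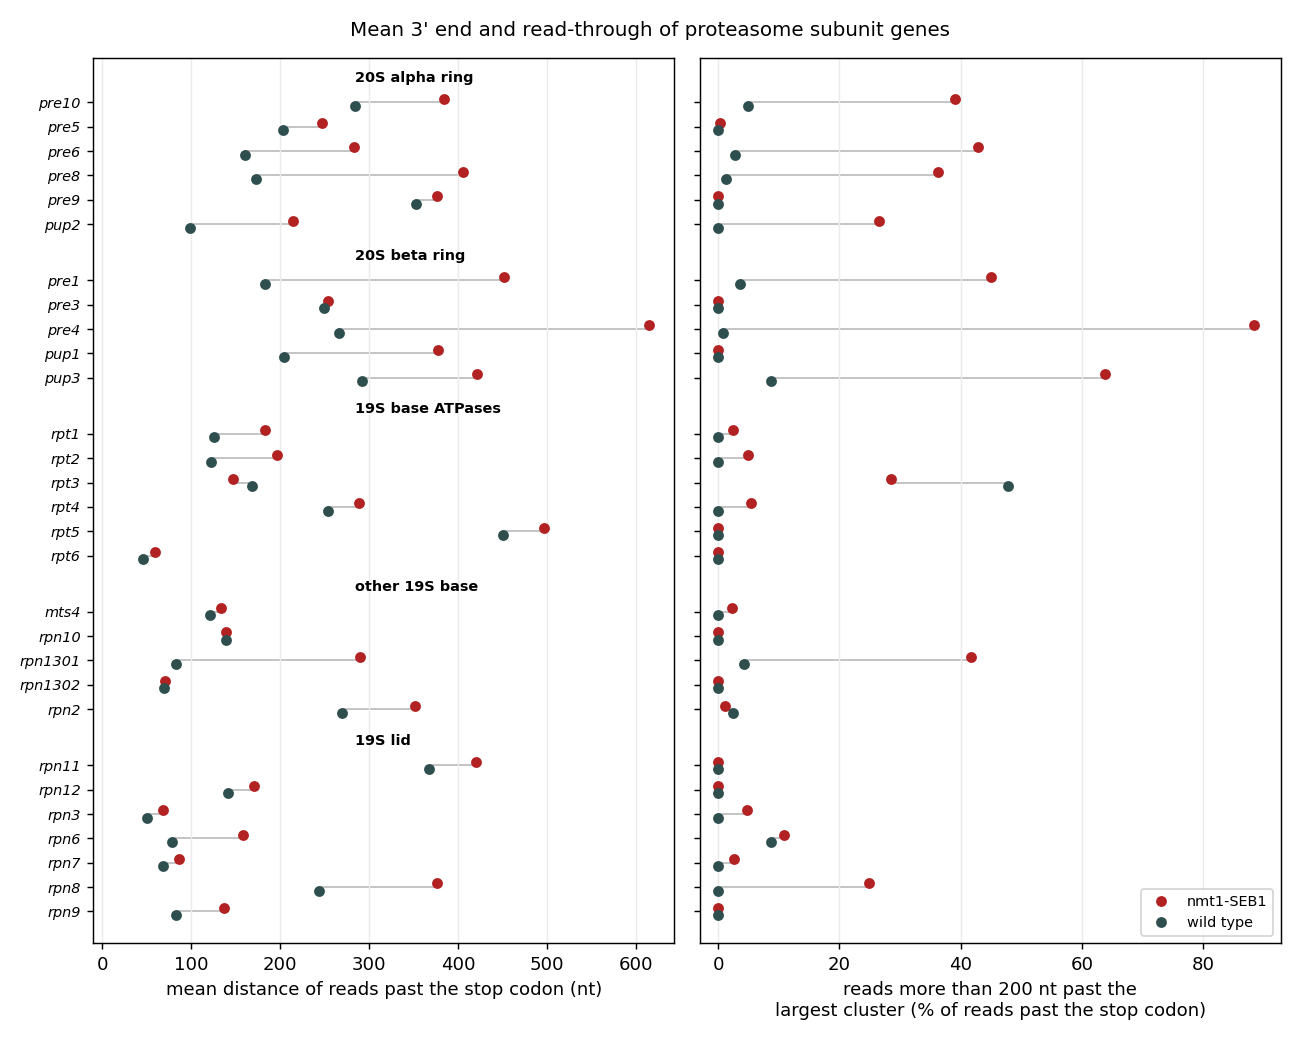
Mean end of the reads downstream of the stop codon in nt (left) and read-through in percent of those reads (right), for 29 members by subcomplex in nmt1-SEB1 and wild type; lines join the libraries. Most nmt1-SEB1 points lie to the right, pre4 stands furthest out at 614 nt and 88.3%, and rpt3 runs the other way in both panels.

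The downstream reads of several members lay opposite the convergent coding gene next to them. The share of reads past the stop codon that ended opposite that neighbour was 94.3% in nmt1-SEB1, against 26.8% in wild type for rpn9 (neighbour SPAC607.06C), and 90.0% and 36.6% for rpn2 (spp2). It was 72.6% in nmt1-SEB1, against 10.8% in wild type, for pup1 (arp42), 63.8% in nmt1-SEB1, against 8.78% in wild type, for pup3 (prp28), and 62.9% in nmt1-SEB1, against 9.15% in wild type, for pre6 (cys2). The pup3 reads opposite prp28, 164 in nmt1-SEB1 and 13 in wild type, are those already counted as its read-through. rpt2 reached SPBC4.06 with 56.6% of its reads in nmt1-SEB1, against 0.641% in wild type, and rpn8 reached ctl1 with 39.6% and 0.467%. The annotated ends of 5 of these 7 pairs already overlap, by 37 nt for pup1 and arp42 and by 71 nt for rpn8 and ctl1. For rpt2 and SPBC4.06 they lie 22 nt apart. Not all members with a convergent neighbour changed in this way. The share was 100% in each library for rpn6, 99.8% in nmt1-SEB1 and 98.5% in wild type for pre3, and 96.2% and 98.8% for pre1. It also rose for rpn12 (58.2% in nmt1-SEB1, against 37.4% in wild type) and pre8 (35.9%, against 1.74%). The share was not computed over all coding genes.

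More reads also lay on the strand opposite the members themselves in nmt1-SEB1. Of 18 members with 20 or more antisense reads in sum, 11 had a ratio of at least 2 (64.8% of 3259 coding genes), and 1, pre8, was lower (5.43%). Over all members there were 2407 antisense reads in nmt1-SEB1, against 526 in wild type, a ratio of 3.71 (3.37 to 4.08), and over all coding genes the ratio was 1.57. Within the coding span alone the members had 1365 reads in nmt1-SEB1, against 46 in wild type, a ratio of 24.04 (17.9 to 33.0), against 4.54 over all coding genes. These are ratios of pooled reads. Gene by gene, among tested genes with reads in both libraries, the median log2 ratio over the whole gene was 1.26 for members and 1.64 for coding genes. The higher pooled ratio over the whole gene was thus not that of a typical member. rpt3 had 444 antisense reads in nmt1-SEB1, against 4 in wild type, of which 207 and 1 lay in the coding span. There were 292 for rpn10, 240 for pre1, 205 for rpn8 and 120 for rpt2 in nmt1-SEB1, and 6, 18, 10 and 1 for the same genes in wild type. These genes carry most of the members' difference. rpt4, with 346 in nmt1-SEB1, against 150 in wild type, had mostly reads outside the coding span (32 within it in nmt1-SEB1, against 1 in wild type); the convergent gene yip3 ends 3 nt from it. Antisense reads can be the 3′ ends of a convergent neighbour, and their source was not tested.

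**Figure D5:**
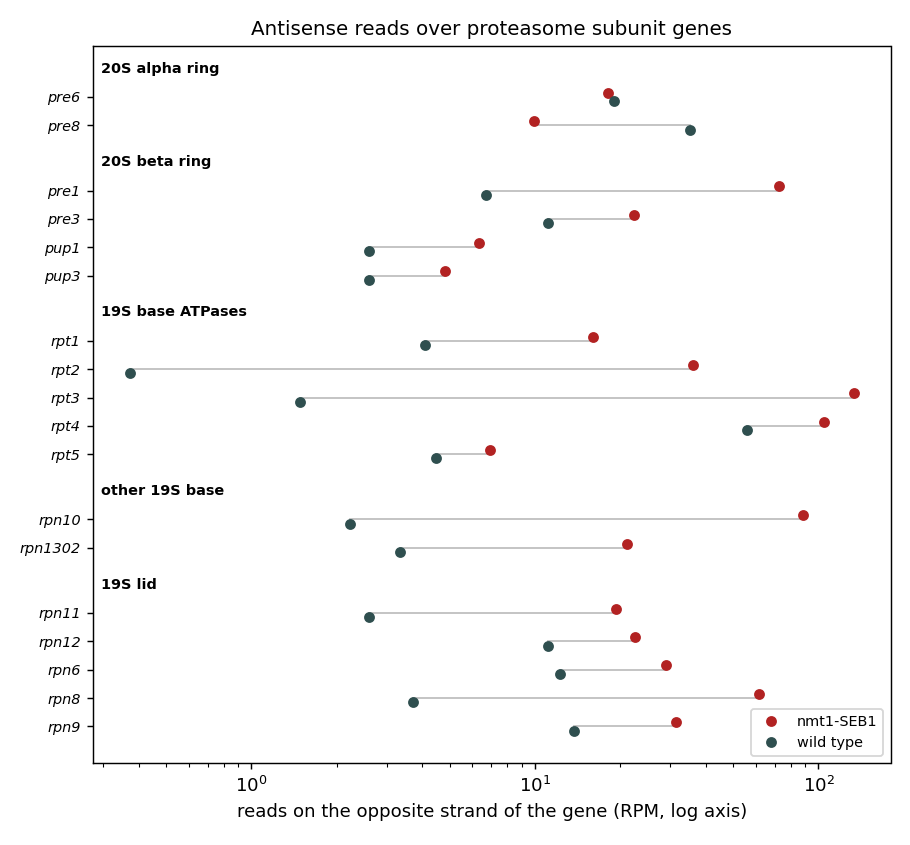
Reads on the opposite strand of the gene, in RPM on a log axis, for the 18 members with 20 or more such reads in sum, by subcomplex, in nmt1-SEB1 and wild type; lines join the libraries. The widest gaps are those of rpt2, rpt3 and rpn10, and pre8, which overlaps wss2 by 921 nt, is the called gene with fewer antisense reads in nmt1-SEB1.

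Reads that ended before the stop codon made up 2.85% of the members' reads in nmt1-SEB1 (398 reads, Wilson interval 2.59 to 3.14) and 0.624% in wild type (97 reads, 0.512 to 0.760). Over coding genes the shares were 4.04% in nmt1-SEB1, against 2.44% in wild type. The members' reads of this kind sat in a few genes. rpn3 had 151 such reads in nmt1-SEB1, against 1 in wild type, and 113 of the 151 ended at 1 position in its coding exon, 1566 nt before the stop codon; the upstream gene gpt1 ends 64 nt before rpn3. Without rpn3 the members' shares were 1.92% in nmt1-SEB1, against 1.07% in wild type, and for coding exons alone they were 0.885% in nmt1-SEB1, against 0.869% in wild type. In rpn2, 48 of 51 such reads in nmt1-SEB1 ended at 1 position 2958 nt before the stop codon, and in wild type there were 7. Ends in 5′ UTRs came from rpn11 (30 reads in nmt1-SEB1, 0 in wild type), which overlaps the upstream gene SPAC31G5.21 by 39 nt, and from pup2 (34 in nmt1-SEB1, 0 in wild type), 131 nt past pex8. All members had 65 reads there in nmt1-SEB1, against 0 in wild type, which allows up to 0.0193%. rpt6 had 49 intronic reads in nmt1-SEB1, against 7 in wild type. Whether reads near the start of a member belong to the upstream gene was not tested.

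The ends of most members were also spread over more positions in nmt1-SEB1. At an equal depth of 100 reads per gene, 15 of 17 members had more end positions in nmt1-SEB1 (74.9% of 1743 coding genes), with medians of 20.8 positions in nmt1-SEB1, against 14.4 in wild type. There were 37.6 for pre8, 29.7 for pre4 and 18.1 for rpn8 in nmt1-SEB1, and 18.2, 15.8 and 7.92 for the same genes in wild type. pre6 (21.4 in nmt1-SEB1, 25.6 in wild type) and pre3 (7.03 in nmt1-SEB1, 7.48 in wild type) went the other way, and pre3 had the fewest positions in each library. Counted as clusters with 5% or more of the reads, 12 members had more in nmt1-SEB1 (46.4% of 3672 coding genes), 14 the same number and 3 fewer (22.2%). In pre4 the number was 5 in nmt1-SEB1, against 1 in wild type.

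TGTA, which is UGUA in the RNA, was searched on the transcribed strand within 100 nt after each site. It followed the proximal site in 15 of 26 members (57.7%, against 62.1% of 2949 coding genes) and the distal site in 19 (73.1%, against 58.2%). It was present after the proximal site in 13 of the 17 members with a higher distal share (68.6% of such coding genes), in 2 of the 8 with neither call (50.8%) and not in rpt3. After the distal site it was likewise present in 13 of the 17 (56.5%), in 5 of the 8 (60.9%) and in rpt3. The 4 shifted members without TGTA after the proximal site were pre4, pre1, rpn2 and pre8. AATAAA or AATGAA stood within 50 nt before the proximal site in 8 of 26 members (24.8% of coding genes) and before the distal site in 4 (29.1%). In pup3 and rpt2, shown above, TGTA starts 8 and 12 nt after the proximal site, and in pup1 56 nt after it. Where a pair lies closer than 100 nt, the window after the proximal site runs past the distal one. TGTA also follows the peak of the single cluster in rpn3 and in pre3.

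Proteasome genes under other symbols and genes of the wider ubiquitin pathway are given for comparison; their reads are those in nmt1-SEB1 against those in wild type. Of 13 other genes (core subunits outside the rule, assembly factors and regulators; dss4, a guanyl-nucleotide exchange factor, was taken in by symbol), 2 were higher and 1 lower, with a median log2 ratio of 0.34. These were ecm29, a proteasome-binding factor gene (357 against 65 reads, log2 2.15), fub1, a PI31-type inhibitor gene (78 against 26, log2 1.28), and the beta 6 gene pam1 (161 against 336, log2 -1.37). The distal share was higher in 5 of 7 tested and no lower share reached 10 points; that of cut8, a tethering factor gene, was 91.5% in nmt1-SEB1, against 98.7% in wild type (Benjamini-Hochberg adjusted p of Fisher's exact test = 0.000255). Of 50 ubiquitin genes, 11 were higher and 5 lower, with a median of 0.26. Of all coding genes tested, 26% were higher, 17% lower and 67.3% higher in distal share. The largest ratios were those of ubp8 (58 against 6 reads, log2 2.97) and ubp4 (135 against 17, log2 2.69), which encode ubiquitin hydrolases, and of the conjugating enzyme gene ubc13 (1295 against 211, log2 2.31). The lowest were those of ubi2, a ubiquitin and ribosomal protein fusion gene (1066 against 4998 reads, log2 -2.53), and of the ubiquitin ligase genes ubr11 (272 against 1022, log2 -2.21) and pub3 (204 against 497, log2 -1.59). Of 31 tested for site choice, 20 had a higher distal share in nmt1-SEB1 and 1, dsk2, a lower one.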

How the data were processed

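RNA 3′ ends were sequenced from polyadenylated RNA of an nmt1-SEB1 and a wild-type strain, 1 library each. The deposited files give read counts per end position and strand; the counts are raw, although the labels' protocol speaks of RPM. Bowtie2 and the build ASM294v2 are named in the submitters' processing notes; the Bowtie2 version is not given in the sources used here. A header in the reference names ASM294v3. Its annotation places 40.4% (nmt1-SEB1) and 42.0% (wild type) of coding reads within 25 nt of an annotated gene end, and whether positions are counted from 0 or 1 is not stated. Reads on 3 other contigs were left out. Members and lists were chosen with earlier results of these data known.

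Each read was assigned to the gene that contains it on its strand (the one with the nearest 3′ end where genes overlap), or else to the nearest gene end upstream within 1000 nt; lncRNAs counted as genes. Abundance ratios have exact conditional binomial (Clopper-Pearson) 95% intervals. Site choice was tested with the two-sided Fisher's exact test, Benjamini-Hochberg adjusted over all coding genes tested; shares have Wilson intervals. A count of 0 allows 3 counts. Intervals, tests and floors cover counting error only, since the labels state no molecular identifiers. The calculations used Python 3.11.15, numpy 2.4.6, scipy 1.17.1 and pandas 2.3.3; TMM factors came from edgeR 4.0.16 in R 4.3.3.

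On simulated counts all 100 genes raised 4-fold, all 100 genes lowered 4-fold and 9 of 4100 unchanged genes were called. Of 200 genes given a distal share raised by 30 points, 160 were called, as were 2 of 2473 unchanged ones. The simulated nmt1-SEB1 counts were drawn with counting error alone around the wild-type counts with which they were compared. Changed genes were taken only from those with more wild-type reads than the minimum for calls. The simulated counts hold no variation between libraries, so these rates do not give the accuracy of the calls above. Named in full were the 2 members with most reads per subcomplex, the 5 largest distal-share differences, the 5 highest and 5 lowest abundance ratios, every lower distal share and the near-identical copies. Other members are named by value, chosen after their values were seen. Alternatives covered scaling, read minimum, reach, lncRNAs, cluster width and choice, thresholds and depth.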

Additional observations from a re-analysis of the deposited data

How the results depend on the processing

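Of 145 abundance values of single members under the alternatives, 127 kept their call, 1 call ended, 17 arose and 28 signs turned, most of them under the other scalings. Of 198 distal-share differences 184 kept their call, 9 calls ended, 4 arose and 1 turned (pup3). Of 87 mean-end differences 79 stayed on their side of 20 nt, 4 fell within it and 4 passed it. Members at least 2-fold lower numbered 11 with a median log2 ratio of -0.44 under TMM, and 12 with -0.50 under median-of-ratios, where coding genes gave 669 and 629 higher and 1517 and 1597 lower, against 1223 and 798. Reads up to 200 nt past the end gave 4 higher members and a median of -0.12. With lncRNAs ignored there were 7 and 0.36, and pre9 reversed to 0.13. Clusters chosen on wild type gave 10 higher and 2 lower distal shares (coding 1245 higher, against 1985) and reversed rpn6 (-8.70 points), pup1 (-8.62), pre1 (-7.17) and pup3 (-42.5), and ended the call of rpt2 (1.12). First and last clusters gave 0 lower calls by Fisher's exact test (coding 30, against 117) and reversed pre10 (36.8) and rpt3 (8.78). Clusters of 10 nt reversed rpn6 (-8.70) and mts4 (-0.52), and clusters of 50 nt rpt4 (3.92). Reads up to 500 nt reversed the distal difference of pre1 (-5.15 points) and the mean ends of pre1 (-4.46 nt, also at 200 nt) and rpn6 (-3.98 nt). At a difference of 50 nt, 0 members ended closer. Read-through over 10% was met by 17 members in nmt1-SEB1 and 6 in wild type at 100 nt, beside 54.3% and 16.7% of coding genes. With lncRNAs ignored it was met by 19 and 3, beside 48.1% and 11.6%. With the largest wild-type cluster it was met by 2 in wild type, beside 14.6%. Coding exons alone gave 1.82% in nmt1-SEB1 and 0.508% in wild type before the stop codon, and the coding span alone an antisense ratio of 24.04. Without rpn3, chosen after seeing the data, the shares before the stop codon were 1.92% in nmt1-SEB1 and 1.07% in wild type, those of coding exons 0.885% and 0.869%, and the ratio of summed member reads reversed to 1.16 (0.727 with it). The other clusters or windows used were part of each such setting; other causes were not tested. No paired analysis was possible because each group had 1 library, and no replicate could be left out. Pairs of few reads, such as those of rpn6 and rpt5, limit what can be seen at this depth.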
